A study of Mus musculus with 8 samples.

Results

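The genes of the semaphorin, plexin, neuropilin, ephrin, Eph, Slit, Robo, netrin, UNC5 and FLRT families, which encode guidance cues and the receptors that read them, were followed in the retinal pigment epithelium (RPE) of mice with and without *Bbs8*. Members were chosen by symbol and by level: a gene had to carry the name of one of these families and to reach at least 1 CPM, its count scaled to a common total over genes, in at least 4 of the 8 libraries. Of 76 annotated genes with such a symbol, 75 were listed in the count files and 56 passed the minimum, among 12889 genes that passed it of 31053 listed. *Ntn3* was not analysed here. The rule itself uses no difference between genotypes, and no gene passed the minimum through the libraries of a single genotype.

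The study asked how loss of *Bbs8*, which encodes a subunit of the BBSome, the complex that moves cargo in and out of primary cilia, alters the RPE. RNA was taken from isolated RPE at postnatal day 29 (P29), from 4 *Bbs8*+/+ mice (WT) and 4 *Bbs8*-/- mice (KO) of the C57/Bl6 strain, none of them treated, with the controls drawn from littermates and each animal taken as a biological replicate. The knockout is constitutive, so photoreceptors and every other cell of the eye lacked the gene too, and the sex of the animals was not determined. RPE sheets were peeled from the choroid after trypsin digestion of the eyecup, a preparation that can carry RNA of neighbouring cells. Poly-A primed 3′ libraries were read, in which a transcript gives reads at its end, so that levels need no division by transcript length.

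Semaphorins bind plexins, and the secreted class 3 semaphorins usually do so through neuropilins as co-receptors. Ephrins are tethered to the membrane and bind Eph receptor tyrosine kinases on the next cell. Slits bind Robo receptors, and the classical netrin, encoded by *Ntn1*, binds DCC, neogenin and UNC5 receptors. FLRT proteins are adhesion molecules that bind UNC5 receptors and latrophilins. These pairs steer axons and vessels, and in epithelia they act on cell contacts and on the actin cytoskeleton. The RPE faces the photoreceptors on its apical side and the choroidal vessels on its basal side, and so can meet such cues from both.

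Each library held between 2389835 and 3093428 counts on genes, at which 3 counts correspond to 0.970 to 1.26 CPM. CPM values are scaled by TMM, edgeR's correction for differences in composition between libraries. *Ttc8*, the gene symbol of *Bbs8*, had 105, 142, 144 and 116 counts in the WT libraries and 15, 5, 14 and 15 in the KO libraries, a log2 fold change of -3.34 (SE 0.294, adjusted p = 2.47e-11, edgeR). The exons removed in the knockout are not given in the sources used here, so it is not known whether these 3′ reads lie inside them. WT library 1 differed more from the other WT libraries (chi-square per degree of freedom 6.07 to 7.51 over genes) than these did from each other (2.87 to 3.41). Without it 8 members passed the test, among them all 6 that passed with it. Over all 12889 genes 643 were then higher and 856 lower, against 704 and 877 with it.

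The summed level of 18 RPE marker genes was 42324 to 43315 CPM in WT and 50874 to 54674 CPM in KO, with 5 higher and 4 lower and a median log2 fold change of -0.04. *Ttr*, which encodes the retinol carrier transthyretin, took up this rise (20932 ± 540 CPM in WT and 31747 ± 1397 CPM in KO), and the other 17 genes summed to 21834 to 22310 CPM in WT and 20878 to 21476 CPM in KO. Markers of other cells moved with the genotype as well. Photoreceptor genes summed to 61814 to 65841 CPM in WT and 25997 to 26721 CPM in KO, with 14 of 20 lower and 4 higher. Lens genes, 17 of 17 lower, summed to 3757 to 3992 CPM in WT and 635 to 713 CPM in KO. Erythrocyte genes, 5 of 6 lower, summed to 5155 to 5719 CPM and 1985 to 2218 CPM, with *Epb42* at 0 counts. Genes of Müller and reactive glia, 8 of 14 higher, summed to 5214 to 5824 CPM in WT and 7420 to 7754 CPM in KO. Most of this sum came from *Apoe* (mean 4110 CPM in WT and 4856 CPM in KO) and *Glul* (1199 and 1709 CPM). *Serpina3n* (7.06 and 423 CPM) added to the rise. *Aqp4*, *Slc1a3*, *Kcnj10*, *Lcn2*, *Vim* and *Cd44* were not called, the last 2 with log2 fold changes below 0. Of 6 tested ocular surface genes 5 were higher, with sums of 21.7 to 27.5 CPM and 97.8 to 114 CPM and with *Krt12* at 0. *Trp63*, not tested, had 1, 3, 0 and 0 counts in WT and 0 in every KO library. Most of the WT sum came from *Pax6* (10.2 CPM in WT and 21.4 CPM in KO) and *Aldh3a1* (12.9 and 17.3 CPM), the gene not called. The sums of inner retinal neurons (688 to 753 CPM in WT and 648 to 752 CPM in KO, 1 of 17 higher and 1 lower, *Pou4f2* at 0), of endothelium and pericytes (133 to 149 CPM and 126 to 168 CPM) and of fibroblasts (1083 to 1422 CPM and 996 to 1187 CPM, 2 of 8 lower) overlapped between genotypes. Most of the inner retinal sum came from *Slc6a9* (mean 381 CPM in WT and 389 CPM in KO), *Trpm1* (149 and 130 CPM), also in the RPE list, and *Prkca* (111 and 75.6 CPM), the lower gene. The sum therefore says little of the other genes of that list. Of its 17 tested genes 9 had a log2 fold change above 0 and 8 below, and the higher gene was *Nefm* (2.14 and 7.64 CPM). Melanocyte genes summed to 225 to 260 CPM and 279 to 308 CPM with 1 of 6 higher, and microglia and macrophage genes to 368 to 478 CPM and 327 to 372 CPM. The part of these shifts in the differences of guidance genes was not tested, and in bulk RNA fewer cells of a type cannot be told apart from less RNA per cell.

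Of the 56 members, 4 were up-regulated in KO RPE (*Sema3b*, *Unc5c*, *Flrt2* and *Epha4*) and 2 were down-regulated (*Sema7a* and *Ntn4*) at an adjusted p under 0.05 in edgeR's quasi-likelihood test over all 12889 genes. These were 7.14% of the members against 5.46% of all genes higher in KO, and 3.57% against 6.80% lower in KO, shares that, at 4 and 2 genes, show nothing particular to these families. The log2 fold change was above 0 in 34 members (60.7%, against 51.8% of all tested genes) and below 0 in 22. Its median was 0.15 against 0.02 for all tested genes, and its median size was 0.40 against 0.32. These sizes were not matched for level, and low genes have less precise values. For 10 members (17.9%) the 4 values of KO did not overlap the 4 of WT, against 16.0% of all genes. In edgeR 14 members had an unadjusted p under 0.05. The share of all genes under it was not computed, so no excess can be read from this count. With libraries scaled by their size alone the calls over all genes changed from 704 higher and 877 lower to 1005 higher and 657 lower, and the members from 4 higher and 2 lower to 5 higher and 1 lower.

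**Figure D1:**
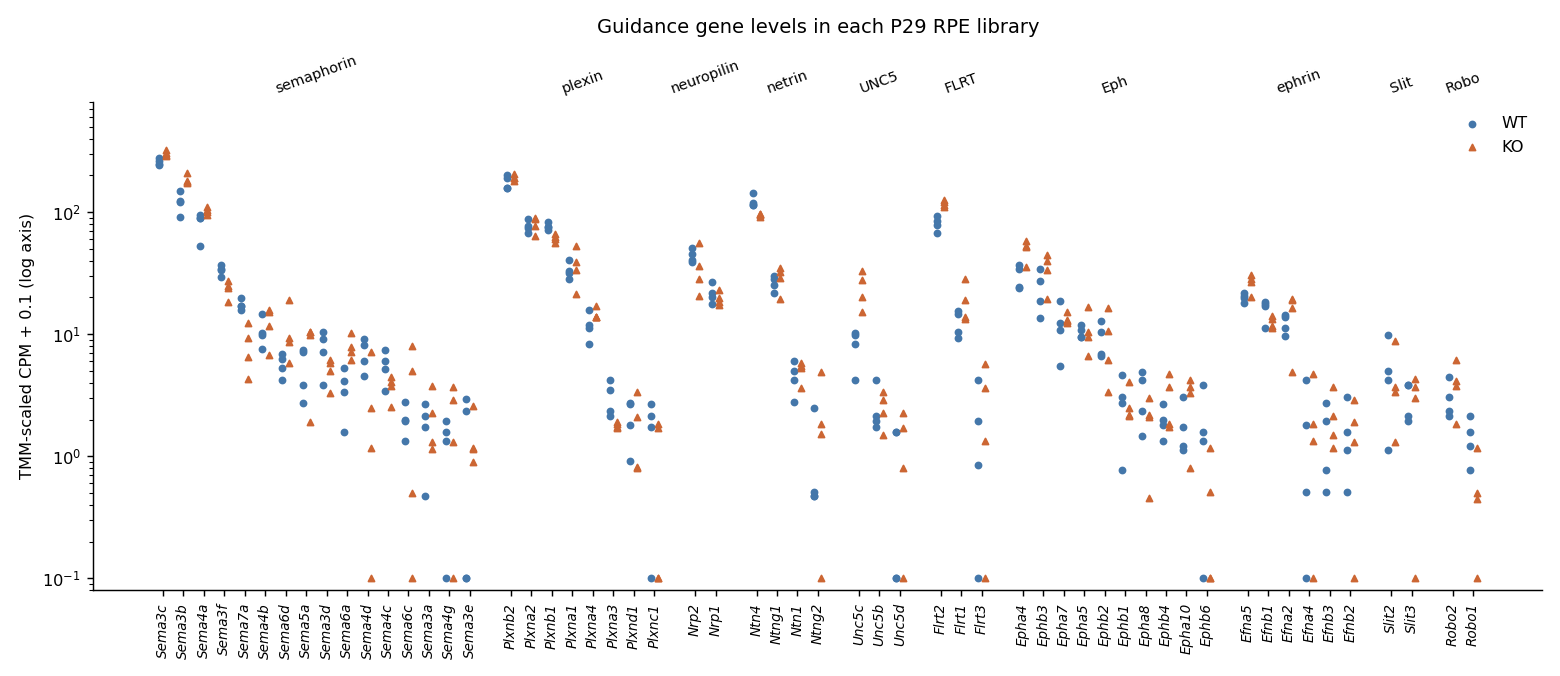
TMM-scaled CPM (plus 0.1, log axis) of the 56 guidance genes in each of the 4 WT libraries (circles) and 4 KO libraries (triangles), grouped by family and ordered by mean level. *Sema3c*, *Plxnb2*, *Sema3b* and *Ntn4* stand highest, most points of the genotypes overlap, and *Unc5c* and *Sema7a* show separated groups.

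The levels of the members spanned a wide range, from a mean of 0.894 CPM for *Robo1* to 280 CPM for *Sema3c*, with a median of 6.43 CPM. *Sema3c*, a secreted semaphorin, led its family with 45.8% ± 1.37 of the summed semaphorin CPM in WT and 44.6% ± 0.725 in KO (SD, n = 4), and together with *Sema3b* made up 67.3% ± 4.94 and 71.7% ± 0.615. The plexins were led by *Plxnb2*, a receptor for class 4 semaphorins, with 46.3% ± 4.68 of the plexin sum in WT and 49.5% ± 1.93 in KO. *Ntn4*, a laminin-related netrin of basement membranes, gave 79.3% ± 3.61 of the netrin sum in WT and 72.7% ± 2.63 in KO, and *Flrt2* gave 85.4% ± 2.22 and 85.0% ± 5.32 of the FLRT sum. The next means in order after *Sema3c* were those of *Plxnb2*, *Sema3b*, *Ntn4* and *Flrt2*, and each of the tested Slit and Robo genes had a mean below 5 CPM.

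Among the semaphorins, 16 of 20 listed genes passed the minimum, 1 rose and 1 fell. *Sema3b*, a secreted class 3 semaphorin (chromosome 9, 107597674 to 107609229, minus strand, GRCm38), stood at 148, 123, 90.3 and 120 CPM in WT 1 to 4 and at 176, 180, 209 and 173 CPM in KO 1 to 4. Every KO library was above every WT library. The mean rose from 120 ± 23.5 CPM to 184 ± 16.8 CPM (SD, n = 4), a fold of 1.53 and a log2 fold change of 0.61 (SE 0.122, adjusted p = 0.000342, edgeR).

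*Sema7a*, a semaphorin that is anchored to the membrane by a lipid and binds integrins and plexin C1 (chromosome 9, 57940112 to 57962865, plus strand), stood at 16.9, 16.8, 19.6 and 15.6 CPM in WT and at 12.3, 6.45, 9.20 and 4.19 CPM in KO. The WT values lay close together, and the KO values spread widely below them with no overlap. The mean fell from 17.2 ± 1.70 CPM to 8.04 ± 3.51 CPM, a log2 fold change of -1.11 (SE 0.341, adjusted p = 0.0255, edgeR). The call was lost without WT library 2 (adjusted p = 0.0534), WT library 3 (0.0739), KO library 2 (0.0709) or KO library 4 (0.0953). Its receptors gave no call beside it: *Plxnc1* was near the floor, at 1.57 ± 1.12 CPM in WT and 0.837 ± 0.968 CPM in KO, and *Itgb1*, the integrin beta chain it binds, was at 80.2 ± 5.94 CPM and 83.8 ± 3.16 CPM (log2 fold change 0.06, adjusted p = 0.841).

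*Sema3c* stood at 276, 245, 246 and 260 CPM in WT and at 307, 290, 323 and 293 CPM in KO, without overlap, but its log2 fold change of 0.24 (SE 0.0901) missed the threshold in edgeR (adjusted p = 0.0772) and passed it in DESeq2 (0.0388), with scaling by library size alone (0.00884), with a stricter minimum of 5 CPM (0.0449) and without WT library 1 (0.0257). *Sema3f*, which signals through neuropilin 2, was at 33.5, 29.5, 36.8 and 33.8 CPM in WT and at 27.1, 18.3, 24.0 and 24.8 CPM in KO. Its groups did not overlap either, and its log2 fold change of -0.50 (SE 0.218) had an adjusted p of 0.141 (edgeR). *Sema6a*, a transmembrane semaphorin that binds A-type plexins, was at 4.06, 1.49, 3.27 and 5.2 CPM in WT and at 6.98, 10.0, 6.0 and 7.69 CPM in KO, a log2 fold change of 1.12 (SE 0.515, adjusted p = 0.172, edgeR). *Sema3b*, *Sema3c* and *Sema3f*, all secreted class 3 cues, thus had KO values outside the WT range in differing directions, of which the test called that of *Sema3b*. The summed semaphorin level was 544 to 577 CPM in WT and 654 to 734 CPM in KO, a sum carried by *Sema3c* and *Sema3b*.

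The class 4 semaphorins, which are transmembrane ligands, were led by *Sema4a*, a gene in which mutations cause retinal degeneration. It stood at 52.5, 88.8, 95.2 and 89.9 CPM in WT and at 93.6, 105, 110 and 99.6 CPM in KO. WT library 1 lay far below the rest and WT library 3 within the KO range, and the log2 fold change of 0.33 (SE 0.148) had an adjusted p of 0.166 (edgeR). *Sema4d*, the ligand of plexin B1, was at 8.12, 4.48, 8.99 and 5.95 CPM in WT and at 6.98, 1.07, 2.4 and 0 CPM in KO, where KO library 1 alone stayed inside the WT range (log2 fold change -1.42, SE 0.673, adjusted p = 0.191, edgeR). Without KO library 1 *Sema4d* passed the threshold. *Sema4b*, *Sema4c* and *Sema4g* had log2 fold changes of 0.22, -0.58 and 0.74, with overlapping groups.

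Of the remaining semaphorins, *Sema6d* was at 5.55 ± 1.16 CPM in WT and 10.6 ± 5.71 CPM in KO, where KO library 4 stood apart at 18.9 CPM (log2 fold change 0.93, SE 0.426, adjusted p = 0.168, edgeR). *Sema6c* was at 1.23 to 2.71 CPM in WT and spread from 0 to 7.88 CPM in KO. *Sema5a* was at 2.61 to 7.36 CPM and 1.79 to 10.4 CPM, and *Sema3d*, another secreted cue, at 3.72 to 10.2 CPM and 3.22 to 6.0 CPM (log2 fold changes 0.62 and -0.59). *Sema3a* and *Sema3e*, secreted repellents of axons and vessels, were at 0.373 to 2.6 CPM and 0 to 2.86 CPM in WT, and at 1.05 to 3.7 CPM and 0.8 to 2.46 CPM in KO. These 6 genes had adjusted p-values of 0.168 to 0.975 (edgeR).

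**Figure D2:**
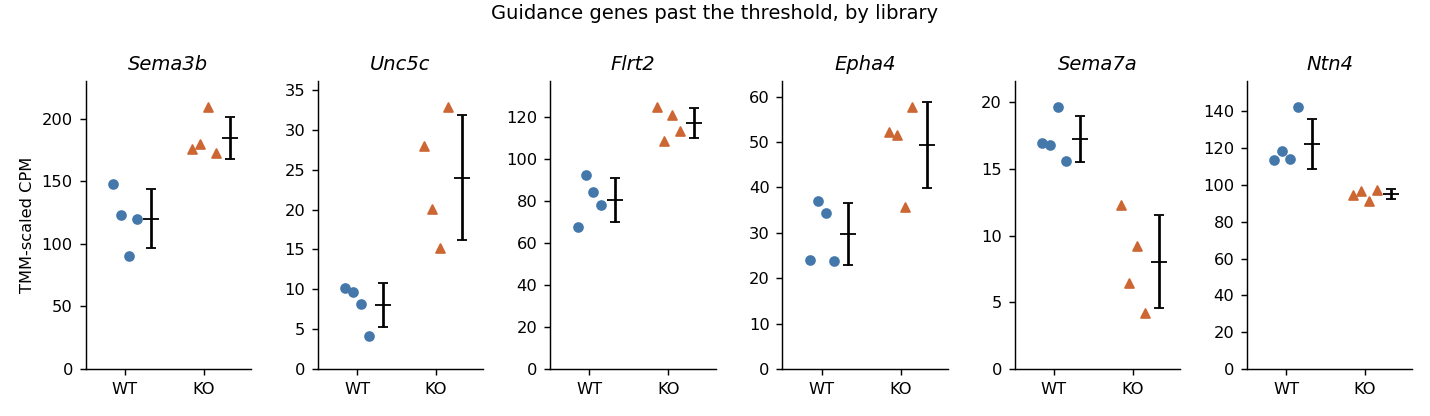
TMM-scaled CPM of the 6 guidance genes past the threshold, with 1 point for each WT library (circles) and each KO library (triangles), a bar for the mean and whiskers for the SD (n = 4). The y axes start at 0 and differ between panels. The genotypes are separate in every panel except that of *Epha4*, where the lowest KO library, at 35.6 CPM, lies under the highest WT library, at 36.9 CPM.

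Among the plexins, which carry semaphorin signals to small GTPases, 8 of 9 plexin genes passed the minimum, and no plexin passed either the edgeR test or DESeq2's Wald test, 1 having an unadjusted p under 0.05 in edgeR. That gene was *Plxnb1*, a receptor for *Sema4d*, at 82.3, 75.0, 74.8 and 71.4 CPM in WT and at 55.4, 62.3, 66.0 and 60.1 CPM in KO, with no overlap and a log2 fold change of -0.32 (SE 0.144, adjusted p = 0.169, edgeR). The gene *Gm7628* overlaps an exon of *Plxnb1* on the other strand. *Plxnb2* was at 176 ± 22.9 CPM in WT and 191 ± 10.1 CPM in KO, and the 95% interval of its log2 fold change, -0.10 to 0.33, leaves room for small changes either way. *Plxna3* had 2.04 to 4.09 CPM in WT and 1.6 to 1.79 CPM in KO, which did not overlap, at counts of 4 to 11 a library (log2 fold change -0.78, SE 0.809, adjusted p = 0.628, edgeR). *Plxna2* (0.05), *Plxna1* (0.14), *Plxna4* (0.29), *Plxnd1* (-0.22) and *Plxnc1* (-0.86) completed the plexins, each value being a log2 fold change whose 95% interval spans 0.

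Of the neuropilins, both measured, *Nrp2* stood at 50.4, 45.1, 40.1 and 38.6 CPM in WT and at 55.4, 20.4, 28.4 and 36.3 CPM in KO. KO library 1 was the highest of all 8 libraries and the other KO libraries lay below the WT range, so that the spread within KO was wide (log2 fold change -0.32, SE 0.221, adjusted p = 0.428, edgeR). *Nrp1*, which binds VEGF-A beside class 3 semaphorins, was at 21.4 ± 3.75 CPM and 19.5 ± 2.42 CPM (log2 fold change -0.14, interval -0.65 to 0.37).

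Netrins and their receptors held the member with the widest fold among the 6 called. *Unc5c*, a dependence receptor through which netrin 1 repels axons (chromosome 3, 141465216 to 141834924, plus strand), stood at 10.2, 9.70, 8.18 and 4.09 CPM in WT and at 27.9, 20.1, 15.2 and 32.8 CPM in KO. The lowest KO library lay above the highest WT library, and the counts were 11 to 30 in WT and 38 to 94 in KO. The mean rose from 8.03 ± 2.76 CPM to 24.0 ± 7.88 CPM, a fold of 2.98 and a log2 fold change of 1.57 (SE 0.322, adjusted p = 0.000494, edgeR). An antisense gene, *Gm15688*, overlaps an exon of *Unc5c* at its 5′ end, and since the strand setting of the counting is not given in the sources used here, reads from the overlap cannot be told apart. Of the other UNC5 receptors, *Unc5b* was at 2.41 ± 1.14 CPM and 2.41 ± 0.818 CPM, and *Unc5d* at 0.745 ± 0.860 CPM and 1.11 ± 0.953 CPM. *Unc5a* stayed below the minimum, with 26 counts in KO library 1 and 0 to 6 in the other 7.

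*Ntn4* (chromosome 10, 93640681 to 93747207, plus strand) stood at 114, 119, 114 and 142 CPM in WT and at 94.8, 96.7, 91.2 and 97.1 CPM in KO. The KO values fell within a narrow band below the whole WT range, in which WT library 4 was the highest. The mean fell from 122 ± 13.6 CPM to 95 ± 2.71 CPM, a log2 fold change of -0.36 (SE 0.122, adjusted p = 0.0452, edgeR). Among the settings that lost the call were scaling by library size alone (adjusted p = 0.151), and fits without WT library 2 (0.0737), without WT library 4 (0.215) or without KO library 1, 2, 3 or 4 (0.0721, 0.0780, 0.103 and 0.0753). The 250 bases before its RefSeq start (GRCm38.p6, plus strand), shown because this promoter holds 4 copies of the GC box, GGGCGG or CCGCCC on either strand and here in capitals with the last pair overlapping, read as follows. The window lies after the start of the longest gene model and outside its exons.
Ntn4, chr10:93640799-93641048: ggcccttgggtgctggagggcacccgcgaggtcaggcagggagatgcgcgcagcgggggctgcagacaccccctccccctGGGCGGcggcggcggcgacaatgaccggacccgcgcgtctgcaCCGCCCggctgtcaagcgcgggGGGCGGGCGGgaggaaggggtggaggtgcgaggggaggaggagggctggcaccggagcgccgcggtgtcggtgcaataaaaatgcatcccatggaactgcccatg

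The other 3 tested netrins passed the threshold neither in edgeR nor in DESeq2, with unadjusted p-values of 0.304 to 0.771 in edgeR. *Ntng1*, a membrane-anchored netrin G, was at 26.3 ± 3.67 CPM in WT and 28.8 ± 6.85 CPM in KO, *Ntn1*, the classical netrin, at 4.42 ± 1.37 CPM and 4.94 ± 0.991 CPM, and *Ntng2* at 0.881 ± 0.993 CPM and 2.00 ± 2.02 CPM. Of the netrin receptors named above outside the UNC5 family, *Neo1* was at 78.4 ± 5.84 CPM and 80.8 ± 4.73 CPM (log2 fold change 0.04, adjusted p = 0.900, edgeR). *Dcc* had 0 to 3 counts in every library and was not tested.

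*Flrt2*, an adhesion protein that binds UNC5 receptors and latrophilins (chromosome 12, 95692226 to 95785215, plus strand), stood at 67.7, 92.5, 84.2 and 78.0 CPM in WT and at 125, 109, 121 and 114 CPM in KO. The KO libraries lay above the WT range. The mean rose from 80.6 ± 10.4 CPM to 117 ± 7.20 CPM, a fold of 1.45 and a log2 fold change of 0.54 (SE 0.129, adjusted p = 0.00310, edgeR). *Flrt1* was at 12.3 ± 3.06 CPM and 18.4 ± 6.88 CPM (log2 fold change 0.58, SE 0.310, adjusted p = 0.260, edgeR) and *Flrt3* at 1.67 ± 1.78 CPM and 2.58 ± 2.48 CPM. Of the latrophilins, picked for description here after their values were seen, *Adgrl3* had 26, 12, 13 and 5 counts in WT and 44, 52, 43 and 85 in KO, without overlap (log2 fold change 2.01, SE 0.369, adjusted p = 0.000113, edgeR). *Adgrl1* was at 145 ± 18.5 CPM and 174 ± 13.4 CPM (adjusted p = 0.131) and *Adgrl2* at 4.46 ± 2.52 CPM and 8.79 ± 3.95 CPM (adjusted p = 0.218). *Sema3b*, *Unc5c* and *Flrt2* passed the threshold in all 15 alternative analyses, with log2 fold changes of 0.49 to 0.73, 1.35 to 1.74 and 0.46 to 0.63.

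Of 14 listed Eph receptors 10 passed the minimum and 1 rose. *Epha4*, a receptor tyrosine kinase that binds ephrins of both the A and the B class (chromosome 1, 77367185 to 77515088, minus strand), stood at 24.0, 36.9, 34.3 and 23.8 CPM in WT and at 52.1, 51.6, 35.6 and 57.7 CPM in KO. KO library 3 lay between the WT values and the other KO libraries lay above all of them. The mean rose from 29.8 ± 6.85 CPM to 49.3 ± 9.50 CPM, a fold of 1.66 and a log2 fold change of 0.73 (SE 0.203, adjusted p = 0.0120, edgeR). The call was lost without WT library 4 (adjusted p = 0.0645) or KO library 4 (0.0595). The 250 bases before its RefSeq start (GRCm38.p6, minus strand) are given for comparison with those of *Ntn4*, and hold 1 GC box and 1 CCAAT box (CCAAT or ATTGG) in capitals. An exon of *Gm28386*, a long non-coding RNA on the other strand, reaches into the far end of the window.
Epha4, chr1:77515089-77515338: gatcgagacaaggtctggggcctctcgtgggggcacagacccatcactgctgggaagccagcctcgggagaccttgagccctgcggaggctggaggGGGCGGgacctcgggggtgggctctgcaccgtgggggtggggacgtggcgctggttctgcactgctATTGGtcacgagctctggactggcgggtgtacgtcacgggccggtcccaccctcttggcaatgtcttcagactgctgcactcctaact

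The same windows of *Sema7a*, *Unc5c* and *Flrt2* held 2, 0 and 0 GC boxes, and that of *Flrt2* held 1 E-box (CACGTG). The *Unc5c* window begins at 141465314, after the start of the gene model at 141465216. Those of *Sema7a* and *Flrt2* end just before the start of theirs, so the windows are not alike in position. Of the 60 promoters listed for 47 members, 41 (68.3%) held a GC box, against 56.9% of 12850 promoters of tested genes and 32.7% of all 32851 promoters of this length. A CCAAT box lay in 17, an E-box in 5, the M-box core CATGTG in 3, the TATA box TATAAA in 2 and the OTX and CRX core GGATTA in 0 of the 60, against 33.8%, 6.02%, 12.3%, 12.4% and 6.25% of all promoters, each motif being sought on both strands. The motifs other than the GC box were not counted over promoters of tested genes alone. The median GC content of the window was 64.4% in members, 60.0% in tested genes and 52.4% in all promoters. Its part in these shares was not tested. The counts are matches of letters in a window, and no promoter was listed for *Sema3b*.

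*Ephb3*, the next Eph receptor in level, spread from 13.4 to 33.9 CPM in WT and from 19.3 to 44.0 CPM in KO (log2 fold change 0.56, SE 0.260, adjusted p = 0.177, edgeR), and passed the threshold without WT library 1 or KO library 1. The other Eph receptors above 5 CPM, *Epha7*, *Epha5* and *Ephb2*, had log2 fold changes of 0.18, 0.06 and -0.01 with overlapping groups. *Ephb1*, *Epha8*, *Ephb4*, *Epha10* and *Ephb6* had means of 0.990 to 2.66 CPM over the 8 libraries and standard errors of 0.795 to 1.24. Of 8 listed ephrins 6 passed the minimum, and no ephrin passed edgeR's test or DESeq2's, none of them having an unadjusted p under 0.05 in edgeR. *Efna5*, a ligand of EPHA4, was at 17.9, 20.5, 19.6 and 21.6 CPM in WT and at 30.4, 20.1, 28.4 and 26.6 CPM in KO. All but KO library 2 lay above the WT range (log2 fold change 0.40, SE 0.239, adjusted p = 0.327, edgeR). *Efna2* was at 12.2 ± 2.26 CPM and 14.9 ± 6.83 CPM and *Efnb1* at 16.0 ± 3.27 CPM and 12.5 ± 1.33 CPM. *Efna4*, *Efnb2* and *Efnb3* stood between 0 and 4.66 CPM in the 8 libraries, with log2 fold changes of 0.30, -0.01 and 0.52 and standard errors of 0.938 to 1.05.

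Slits, secreted ligands first known as midline repellents, and their Robo receptors were low in P29 RPE, with 2 of 3 Slits and 2 of 4 Robos past the minimum. *Slit2* spread from 1.02 to 9.70 CPM in WT and from 1.2 to 8.74 CPM in KO, and its log2 fold change of -0.21 (SE 0.636, interval -1.50 to 1.08) turned positive without WT library 2 (0.36) or KO library 3 (0.09). *Robo2* was at 2.04 to 4.40 CPM and 1.75 to 6.09 CPM (log2 fold change 0.40, SE 0.685), and *Robo1* at 0.677 to 2.04 CPM and 0 to 1.07 CPM. *Slit3* was at 1.86 to 3.73 CPM and 0 to 4.19 CPM (log2 fold change -0.10). A difference between genotypes in these Slit or Robo transcripts was not detectable at this depth.

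**Figure D3:**
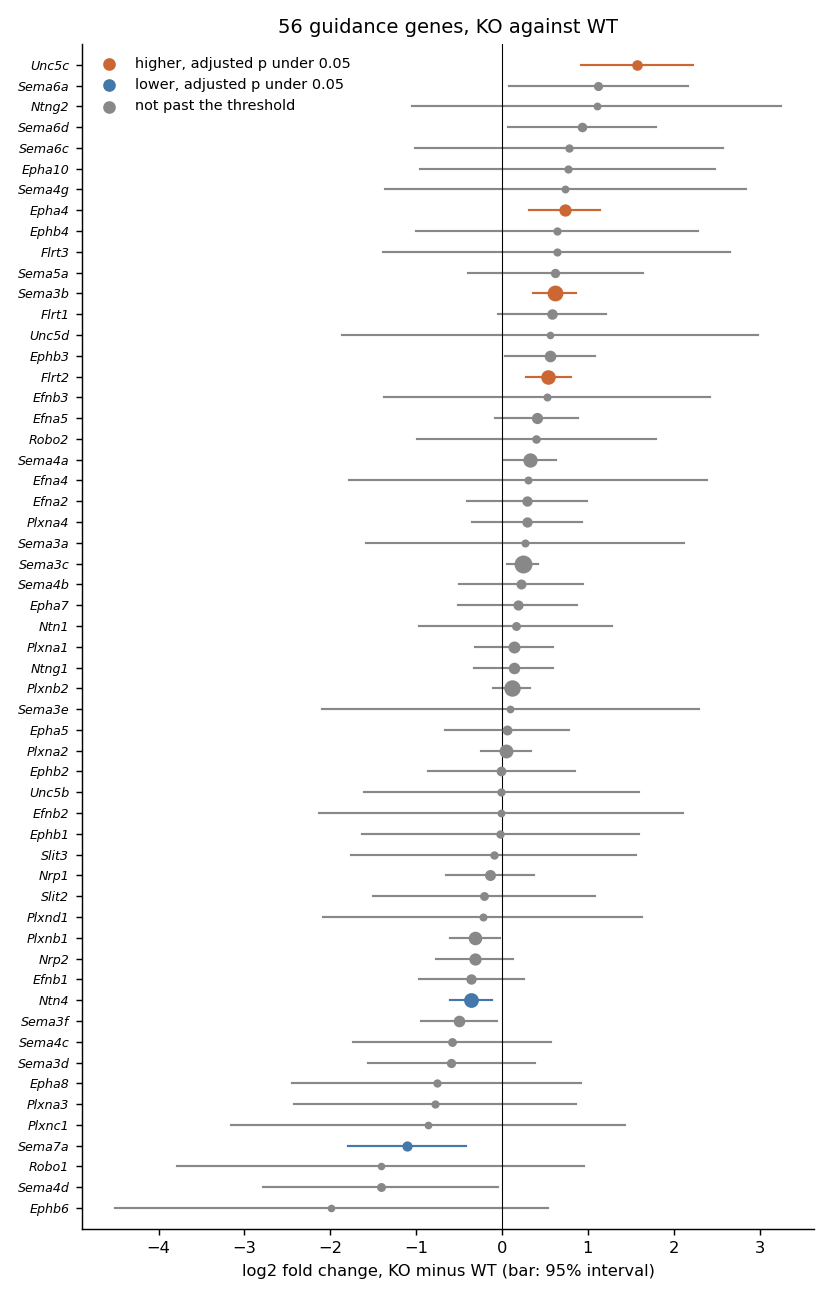
Log2 fold change (KO minus WT, x axis) of each of the 56 guidance genes with its 95% interval from the edgeR fit, ordered from the highest to the lowest value, the size of a point growing with mean CPM. Intervals of low genes such as *Ephb6* and *Robo1* are several units wide and cross 0, whereas those of *Sema3b*, *Flrt2* and *Ntn4* are narrow.

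The precision followed the level. For the 26 members under 5 CPM the standard error of the log2 fold change was 0.555 to 1.24, and no such member passed edgeR's test or DESeq2's, with 1 unadjusted p under 0.05 in edgeR. For the 14 members between 5 and 20 CPM it was 0.300 to 0.515, with 2 called, and for the 16 members from 20 CPM up it was 0.0901 to 0.260, with 4 called (25.0%, against 21.3% of the 6253 genes at this level). The shares of all genes called at the lower levels were not computed.

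**Figure D4:**
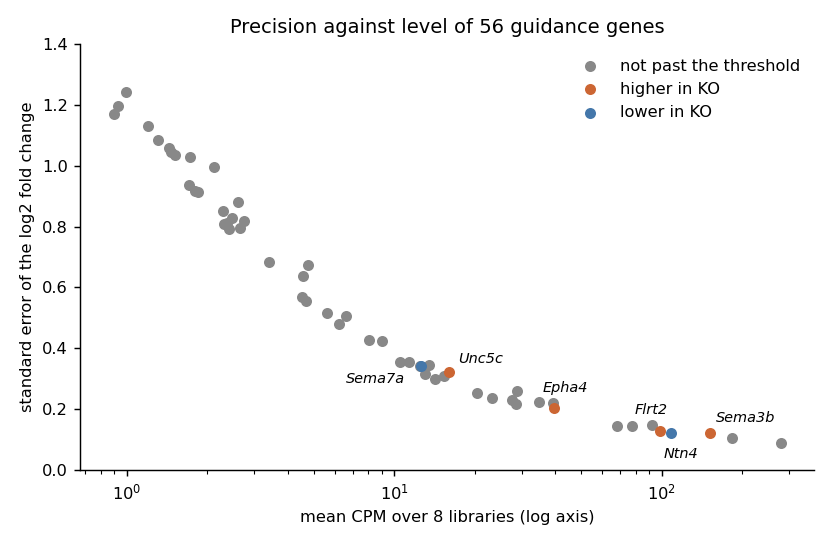
Standard error of the log2 fold change (y axis) against mean CPM over the 8 libraries (log x axis) for the 56 guidance genes. The standard error falls from 1.24 among the lowest genes to 0.0901 for *Sema3c*, and no colored point, that is a gene past the threshold, lies under 5 CPM.

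A total of 19 matching genes stayed below the minimum. *Epha6*, *Plxnb3*, *Plxna4os2* and *Plxna4os3* had 0 counts in every library, which allows up to 0.970 to 1.26 CPM, and *Efna1*, *Efna3*, *Epha1*, *Epha2*, *Ntn5*, *Plxna4os1*, *Robo3*, *Robo4*, *Sema3g*, *Sema4f*, *Sema6b* and *Slit1* had no more than 9 counts in any. *Epha3* reached 15 counts and *Sema5b* 14 counts, each in KO library 3 alone, with 0 to 7 and 0 to 3 in the other 7. *Plxna4os1*, *Plxna4os2* and *Plxna4os3* are antisense RNAs to *Plxna4* that the symbol rule took in.

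Of 93 genes that transmit or modify these signals (other netrin receptors, CRMPs, small GTPases and their exchange factors, kinases and actin regulators), 85 passed the minimum. Of these 85, 7 were higher and 4 lower in KO, against 5.46% and 6.80% of all genes. Counts of 7 and 4 genes show nothing particular to this list. The median log2 fold change of the 85 genes was 0.19, beside 0.02 for all tested genes. The higher genes with the smallest p were *Trio*, *Rock2* and *Myo10*. *Trio*, a GTPase exchange factor that acts downstream of netrin receptors, was at 16.1 ± 4.06 CPM in WT and 45.3 ± 1.97 CPM in KO (log2 fold change 1.49, SE 0.222, adjusted p = 3.50e-06, edgeR). *Rock2*, a kinase that acts on actomyosin contraction, was at 120 ± 7.71 CPM and 197 ± 17.1 CPM (0.72, SE 0.108, adjusted p = 4.03e-06), and *Myo10*, a myosin of filopodia, at 89.4 ± 5.31 CPM and 148 ± 14.8 CPM (0.73, SE 0.119, adjusted p = 1.88e-05). The lower genes with the smallest p were *Dpysl3*, *Islr2* and *Abl2*. *Dpysl3*, a CRMP family protein, was at 441 ± 26.2 CPM in WT and 327 ± 15.8 CPM in KO (log2 fold change -0.43, SE 0.0840, adjusted p = 0.000255, edgeR). *Islr2*, a membrane protein with leucine-rich repeats, was at 11.4 ± 3.06 CPM and 3.62 ± 2.34 CPM (-1.65, SE 0.466, adjusted p = 0.0136), and *Abl2*, a kinase that acts on the actin cytoskeleton, at 52.6 ± 2.99 CPM and 34.0 ± 4.57 CPM (-0.63, SE 0.179, adjusted p = 0.0145). *Rgma*, *Met*, *Rac1* and *Adgrl3* were the remaining higher genes and *Enah* the remaining lower gene.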

How the data were processed

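RPE RNA of 4 WT and 4 KO mice was measured by QuantSeq 3′ mRNA sequencing (30 ng of RNA, 100 bp, single-end). After trimming with BBDuk and alignment by STAR to mm10 with Ensembl gene models, the authors assigned unique reads to genes by htseq-count. They deposited the raw counts. The strand setting of the counting is not given in the sources used here. Groups came from the sample labels.

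Genes that reached 1 CPM in 4 or more libraries were scaled by TMM and compared with edgeR 4.0.16 (quasi-likelihood F test, two-sided, R 4.3.3), with Benjamini-Hochberg adjustment over all 12889 genes and a threshold of 0.05. CPM are TMM-scaled. Standard errors and 95% intervals came from the fit, and floors of 3 counts cover counting error only. The fit was tested on simulated counts. Symbols and coordinates came from GENCODE M21 (GRCm38), and promoters from RefSeq (GRCm38.p6). Windows that overlap an annotated exon of their gene, or lie after a further RefSeq start, were not printed.

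The members, the pathway and marker lists and the tests were chosen with earlier results of these data known. Named members were those past the threshold, those whose genotypes do not overlap and the one with the highest mean of each family. Named pathway genes were the 3 higher and the 3 lower with the smallest p past the threshold, and other genes were named after their values were seen. Alternatives were DESeq2 1.42.0 (Wald test), library size alone, TMM without photoreceptor, lens and erythrocyte genes, no CPM filter, a minimum of 5 CPM, the replicate number as a block, a likelihood ratio test and each library left out. With 4 against 4 libraries an exact permutation test could not go below 0.0286, and none was used.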

Additional observations from a re-analysis of the deposited data

Results flagged for a closer look

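For *Ntn4*, WT library 4 stood apart from its group, at 142 CPM against 114 to 119 CPM in the other 3 WT libraries. Its gap to the nearest of them, divided by the range of the group, was 0.830, just over Dixon's 95% critical value for 4 values. It was 1 of 54 groups of values tested, and chance flags about 1 in 20. Without this library the log2 fold change of *Ntn4* was -0.29, with an adjusted p of 0.215 (edgeR).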

How the results depend on the processing

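The number of members higher in KO was 4, and 3 to 5 under the alternatives that kept all libraries or left out a library other than WT library 1, without which it was 6. The number lower in KO was 2, and 1 with library size alone, 1 with the replicate block and 0 to 2 with a library left out. Leaving out a library gave 3 to 6 members higher in KO and 11 to 14 without overlap. Over all genes these fits called 542 to 643 higher and 708 to 856 lower, against 704 and 877 with all libraries. A smaller group separates more readily, and the share of all genes without overlap was not computed for these fits. The 11 to 14 can therefore not be compared with the count from all libraries. The log2 fold change of *Slit2* was -0.85 to 0.36 with a library left out, and changed sign without WT library 2 (0.36) and without KO library 3 (0.09). Over the log2 fold changes of *Ttc8* and the 16 named members under these alternatives, 232 values kept their direction and side of the threshold, 14 lost a call (*Ntn4*, *Sema7a* or *Epha4*), 4 gained one (*Sema3c*) and 2 changed sign (*Slit2*), and the cause was not tested. Same-numbered WT and KO libraries did not deviate together (correlations -0.03, -0.02, 0.01 and 0.01). Counting noise enters these correlations, so that they cannot exclude a shared litter or batch. The block removed the call of *Ntn4* (adjusted p = 0.0680, edgeR) with no other call among the members gained or lost. Counts limit what can be seen below 5 CPM, where standard errors were 0.555 or more.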
